A study of Mus musculus with 6 samples.

Results

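The genes for glutamate and GABA receptors were followed in RNA sequencing counts of 6 mouse neurofibromas, nerve tumours that arise from the Schwann cell lineage. They were chosen by symbol, with earlier results of these data known. Every row was taken that is named for an AMPA (Gria), kainate (Grik), NMDA (Grin), delta (Grid) or metabotropic glutamate (Grm) receptor. Rows named for a GABA-A (Gabra to Gabrr) or GABA-B (Gabbr) receptor were taken as well, which gave 47 of the 24421 genes in the table. All 6 tumours came from mice of C57BL/6J background with genotype Nf1fl/fl; DhhCre, in which a Cre recombinase under the promoter of the Schwann cell lineage gene Dhh removes Nf1, a negative regulator of Ras. In the 3 tumours MiRNC149, MiRNC640 and MiRNC670 (group miR-155KONf1KO) the microRNA miR-155 was knocked out as well, whereas the 3 tumours Nf803, Nf809 and Nf827 (group Nf1KO) carried no such knockout. The labels name no drug and give neither the age of the mice nor whether each tumour came from its own animal; if some tumours share an animal, the p-values reflect a partly technical spread. The series asked which genes differ between the groups, in search of miR-155 targets. Tumours are mixtures of Schwann cells with and without Nf1, nerve fibres, immune cells and fibroblasts, so fewer cells of a type and less RNA per cell cannot be told apart.

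Glutamate opens the ion channels of the AMPA, kainate and NMDA families and also acts on metabotropic receptors that signal through G proteins. GABA opens the chloride channels of the GABA-A family and acts on the GABA-B receptor, a pair of G protein-coupled subunits. In sensory neurons these receptors sit on the cell body and on the central and peripheral endings, where several of them tune transmitter release, and cells of the Schwann lineage express some of the same genes.

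The libraries held 13061129 to 16333181 reads. The host gene of miR-155, Mir155hg, checked the labels, with 5, 3 and 1 reads in MiRNC149, MiRNC640 and MiRNC670 against 57, 66 and 71 in Nf803, Nf809 and Nf827. Nf1 had a log2 fold change of 0.08 (SE 0.14, edgeR adjusted p = 0.777) when counted over the whole gene, which does not check the deletion itself. General and nonmyelinating Schwann cell markers (12 of 12 tested) were present in every tumour, with a summed level, in reads scaled to a library of 1e+06 reads (CPM), of 4720 to 5998 CPM in miR-155KONf1KO and 4276 to 4735 CPM in Nf1KO. Scn7a made up a large part of these sums, at 2552 ± 496 and 2472 ± 249.8 CPM (SD, n = 3 in each group), and 2 of the 12, S100b (log2 fold change 1.43, edgeR adjusted p = 0.0186) and Gap43 (1.27, edgeR adjusted p = 0.0252), were called higher.

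Of the 47 receptor genes, 34 passed the filter on low counts and were compared by edgeR's quasi-likelihood test with Benjamini-Hochberg adjustment over all 15604 genes tested. At an adjusted p under 0.05, 14 receptor genes were called higher in miR-155KONf1KO, beside 5.22% of all genes tested, and 1 was called lower, beside 4.74% (9.96% of all genes tested were called in either direction). Among the 14 were Gria2, Gria4, Grik1, Grin1, Grm4, Grm7, Grm8, Gabra2, Gabrb2, Gabrg1 and Gabbr2, and the 1 was Gria1. The median log2 fold change over the 34 was 0.82, and over all genes tested it was 0.01. A gene that passes the filter only through its high group had to differ, so these shares describe the genes that were measured and not the families. The ranges of the groups did not overlap for 15 receptor genes that were higher and for Gria1, which was lower; 16.3% of all genes tested were free of overlap in each direction.

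The calls depended on single tumours in edgeR. Without MiRNC670, Nf803 or Nf827 edgeR called 0 genes of any kind, with 16, 17 and 17 receptor genes at an unadjusted p under 0.05. Without MiRNC640 it called Grm8 and Gria1 alone among the receptor genes, without MiRNC149 it called 6 higher and 1 lower, and without Nf809 it called 16 higher and 1 lower. Over all genes these fits called 99 higher and 43 lower, 808 and 667, and 1183 and 1059, in the same order. With sex, read from the counts (MiRNC640, MiRNC670 and Nf809 male), as a covariate, edgeR called 8 higher and 1 lower. Over all genes this fit called 534 higher and 502 lower. DESeq2 called 15 higher and 1 lower with all tumours, and 13 to 17 higher with any 1 tumour left out. Counts over all genes are not given for the DESeq2 fits with 1 tumour left out, so 13 to 17 has no background beside it. With all tumours DESeq2 also called more genes of any kind, 1477 higher and 1441 lower of 17419, against 815 and 739 of 15604 in edgeR.

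**Figure D1:**
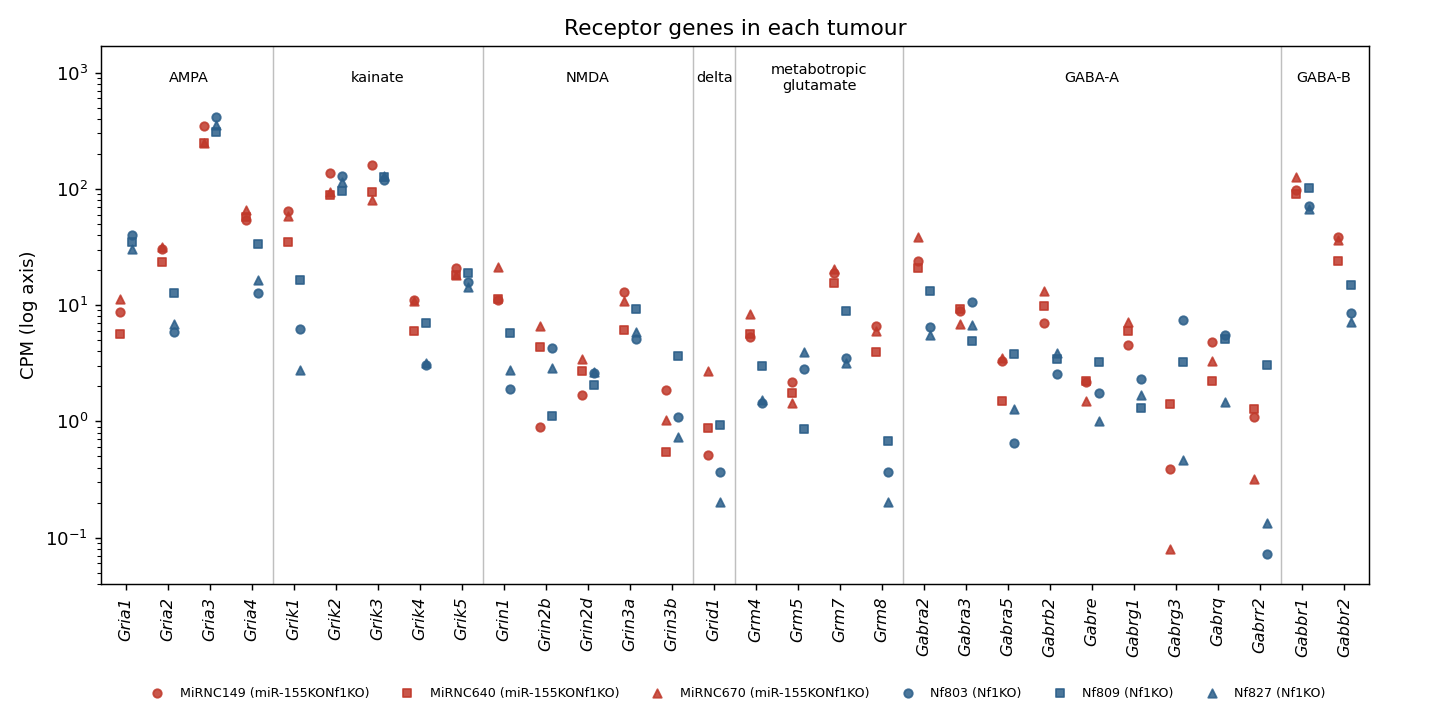
CPM on a log axis of 30 of the receptor genes tested, 1 point per tumour, ordered by family; red marks miR-155KONf1KO and blue marks Nf1KO, and the shape names the tumour. The groups overlap for Gria3, Grik2, Grik3 and Gabbr1, whereas the red points of Grm8 lie between 3.98 and 6.63 CPM, all above the blue points at 0.201 to 0.68 CPM.

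miR-155 pairs with transcripts mainly through its seed, bases 2 to 8, and sites in the 3′ untranslated region (UTR) usually lower the transcript. The mature miR-155-5p from RefSeq (GRCm38.p6, chr16:84714143-84714165, plus strand) is shown with its seed in capitals, because the sites are read against it.
miR-155-5p: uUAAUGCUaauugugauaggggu
For each gene, the longest 3′ UTR in GENCODE M21 was searched on the transcript strand for the 8-base match AGCATTAA and for the 7-base matches AGCATTA and GCATTAA that it contains. Of the 47 receptor genes, 10 (21.3%) held a match of any kind and 2 (4.26%), Gria2 and Gabrg3, held the 8-base match. The 8-base match was held by 3.48% of all tested genes with a 3′ UTR, a share near that of the receptor genes. Among the 14 genes called higher, 4 (28.6%) held any match, among them Gria2, Gria4 and Grik1, and the share among all 14020 tested genes with a 3′ UTR was 14.2%. The 3′ UTRs of the receptor genes were longer, with a median of 2371.5 bases over the 34 tested against 1213 bases over all tested genes, and a longer region can hold more matches. A match is a string of letters and says nothing of binding. The matches of genes that turn up below are shown in capitals within their flanks, 5′ to 3′ on the transcript strand, with the position of the match.
Gria2, chr3:80687561-80687568: gttaattaaaaAGCATTAAtctatatagat
Gabrg3, chr7:56723446-56723453: atttaatcatgAGCATTAActtcaaagcca
Gria4, chr9:4419842-4419848: ggccagttagcGCATTAAactgtgaagtt
Grik1, chr16:87912447-87912453: gctttctttatGCATTAAaaataaatgac
Gabbr1, chr17:37073391-37073397: ctccatttctcAGCATTAgaatctccttc
Gria2 held 5 matches in a 3′ UTR of 7268 bases, of which 1 was the 8-base match, and Gabrg3 held 2 in 7948 bases. These genes with the 8-base match lay on opposite sides: Gria2 was called higher without miR-155, and Gabrg3 had lower values without it and was not called. Gabra4, Gabrb1 and Grin2b held 2 matches of 7 bases each and Grin2a held 1; Gabra4, Gabrb1 and Grin2a were too low to test. Gria1 and Grm8 held none in these regions.

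AMPA receptor genes moved in opposite directions. Gria1, which encodes the GluA1 subunit, was at 8.76, 5.67 and 11.2 CPM in MiRNC149, MiRNC640 and MiRNC670 and at 39.9, 34.8 and 30.5 CPM in Nf803, Nf809 and Nf827. Every tumour without miR-155 was below every Nf1KO tumour. The log2 fold change was -2.04 (SE 0.27, edgeR adjusted p = 0.0197), from 35.1 ± 4.73 to 8.56 ± 2.79 CPM (SD, n = 3 in each group). Gria2, whose edited GluA2 subunit makes the channel nearly impermeable to calcium, was at 30.3, 23.7 and 31.4 CPM against 5.88, 12.7 and 6.90 CPM. The groups did not overlap, and Nf809 was the highest of Nf1KO. Gria2 rose by a log2 fold change of 1.74 (SE 0.31, edgeR adjusted p = 0.0254). Gria4, which encodes the fast GluA4 subunit, was at 54.0, 57.7 and 65.9 CPM against 12.7, 33.3 and 16.4 CPM, a log2 fold change of 1.51 (SE 0.35, edgeR adjusted p = 0.0401). Gria3, which encodes GluA3, had the highest level per length of the 47 genes and was at 348, 248 and 250 CPM against 414, 308 and 352 CPM. Its groups overlapped, and its log2 fold change of -0.34 (95% interval -0.77 to 0.08) did not pass (edgeR adjusted p = 0.272).

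Within the AMPA family, the shares of Gria1, Gria2 and Gria4 did not overlap between the groups, and those of Gria3 did. On a scale per length (RPKM, which is CPM divided by the exon length in kilobases), Gria3 held 74.7%, 68.4% and 63.9% of AMPA RPKM in MiRNC149, MiRNC640 and MiRNC670 and 82.4%, 72.5% and 81.5% in Nf803, Nf809 and Nf827. The share of Gria1 was 3.07%, 2.55% and 4.67% against 12.9%, 13.4% and 11.5%. Gria4 took 18.1%, 24.9% and 26.3% against 3.95%, 12.3% and 5.94%, and Gria2 took 4.12%, 4.15% and 5.09% against 0.742%, 1.90% and 1.01%. In all 6 tumours Gria3 was the most abundant AMPA transcript per length, and in each Nf1KO tumour Gria1 exceeded Gria2 on this scale, the reverse of MiRNC149, MiRNC640 and MiRNC670.

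Grik3, which encodes the GluK3 subunit, had the highest level per length of the kainate genes over the 6 tumours. Grik3 was at 162, 94.0 and 79.9 CPM in miR-155KONf1KO against 120, 126 and 128 CPM in Nf1KO, and its log2 fold change was -0.16 (95% interval -0.75 to 0.44). Grik2, which encodes GluK2, was at 136, 89.0 and 93.3 CPM against 130, 95.4 and 114 CPM, with a log2 fold change of -0.09 (95% interval -0.56 to 0.38). Neither was called, and MiRNC149 was the highest tumour for both. Grik5, a high-affinity subunit that needs a partner to form a channel, had a log2 fold change of 0.23 (95% interval -0.19 to 0.65).

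Grik1 was the kainate gene that rose. It encodes GluK1, the kainate subunit best known from small sensory neurons of the dorsal root ganglion, and it was at 64.4, 34.6 and 58.8 CPM against 6.17, 16.4 and 2.75 CPM. The lowest tumour without miR-155, MiRNC640, was above the highest Nf1KO tumour, Nf809. The log2 fold change was 2.63 (SE 0.61, edgeR adjusted p = 0.0404), and the share of Grik1 in kainate RPKM was 21.9%, 19.1% and 29.1% against 3.32%, 8.56% and 1.54%. Grik1 lies on the minus strand at chr16:87895900-88290265 (GRCm38), 3.18 Mb from Mir155hg at chr16:84703167-84715245; the other receptor genes on chromosome 16, Gabrr3 and Grin2a, are 25.2 and 74.7 Mb away and were too low to test. Grik4, another high-affinity subunit gene, was at 11.1, 6.01 and 10.9 CPM against 3.05, 6.99 and 3.15 CPM, with overlapping groups and a log2 fold change of 1.08 (SE 0.43) that did not pass (edgeR adjusted p = 0.157).

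Among NMDA receptor genes, the gene of the obligatory subunit rose. Grin1, which encodes GluN1, was at 11.1, 11.4 and 21.1 CPM against 1.89, 5.81 and 2.75 CPM, a log2 fold change of 2.05 (SE 0.48, edgeR adjusted p = 0.0406). Its groups did not overlap, and MiRNC670 stood above the rest. Reads of Grin1os, which is antisense to Grin1, numbered 1, 0 and 12 against 0, 2 and 1, and without strand information they cannot be told apart from reads of Grin1. The glutamate-binding GluN2 subunits had few reads. Grin2a had 2 reads in miR-155KONf1KO and 1 in Nf1KO, Grin2c had 20 and 6, and neither was tested. Grin2b was at 0.901, 4.32 and 6.57 CPM against 4.28, 1.11 and 2.88 CPM (log2 fold change 0.51, SE 0.75, edgeR adjusted p = 0.722), and Grin2d was at 1.67 to 3.41 CPM against 2.04 to 2.68 CPM. Tumours of both groups were mixed in order for these genes. The glycine-binding subunit genes Grin3a (6.08 to 12.9 CPM against 5.08 to 9.21 CPM, log2 fold change 0.56, SE 0.37) and Grin3b (0.540 to 1.87 CPM against 0.736 to 3.65 CPM, -0.67, SE 0.76) were not called. Grin2d and Grin3b each overlap a gene on the opposite strand, Kdelr1 (322 to 511 reads) and Tmem259 (202 to 271 reads). Without strand information their counts, and so the NMDA shares, are uncertain. Per length, Grin1 was the most abundant NMDA transcript in each miR-155KONf1KO tumour, at 35.2%, 48.2% and 52.0% of NMDA RPKM. Grin1 was the most abundant in none of the Nf1KO tumours, where it held 12.9%, 20.8% and 18.8%. Its mean over the 6 tumours was 0.929 RPKM, the highest of the family and well under Gria3 at 32.4 RPKM and Grik3 at 13.2 RPKM.

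**Figure D2:**
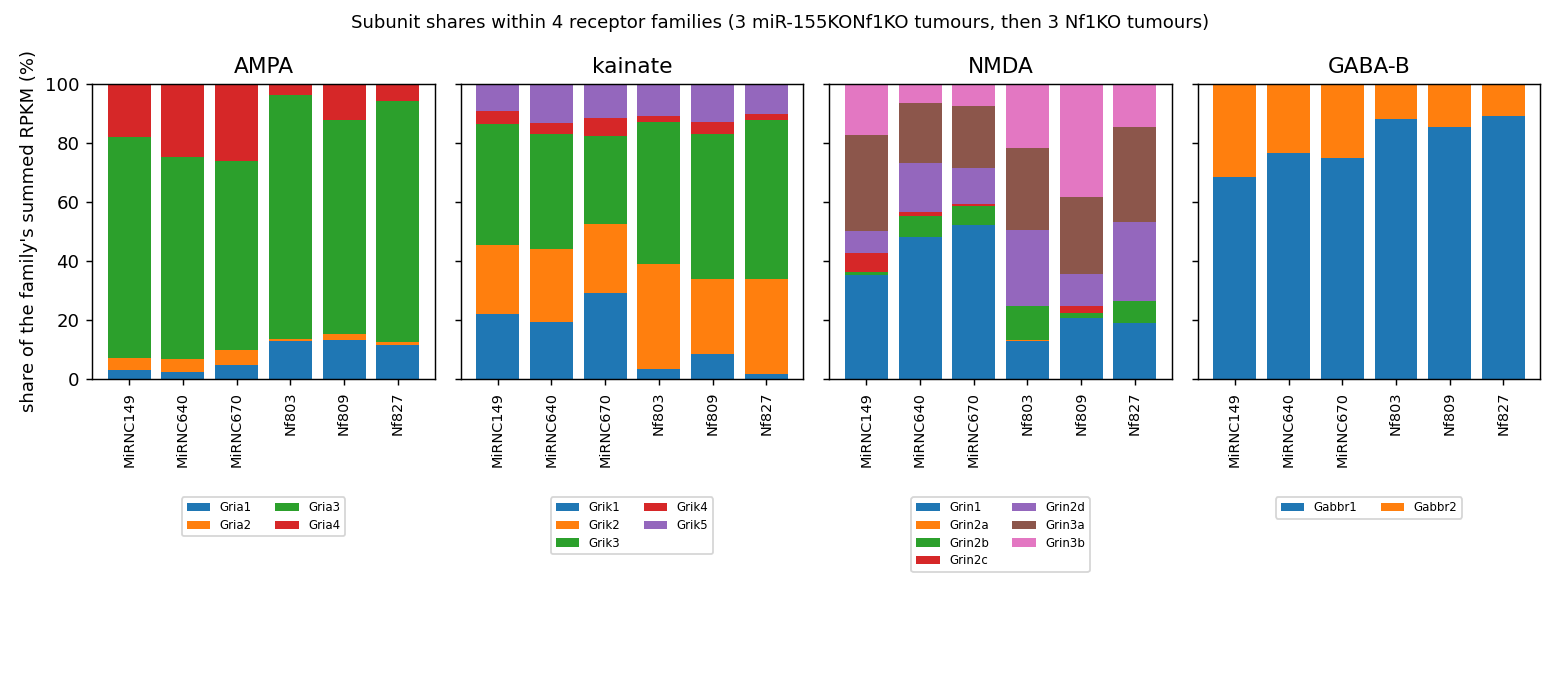
Share of each subunit gene in the summed RPKM of its family, in percent, 1 bar per tumour, with the 3 miR-155KONf1KO tumours left of the 3 Nf1KO tumours in each panel. Gria1 takes 11.5% to 13.4% of AMPA RPKM in Nf1KO and 2.55% to 4.67% in miR-155KONf1KO, and Grik1 takes 1.54% to 8.56% of kainate RPKM in Nf1KO and 19.1% to 29.1% in miR-155KONf1KO.

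Grid1 encodes a delta receptor, a synaptic organiser related to the glutamate channels. It was at 0.515, 0.878 and 2.69 CPM against 0.363, 0.927 and 0.201 CPM, with overlapping groups and a log2 fold change of 1.41 (SE 0.85, edgeR adjusted p = 0.341).

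Of 8 metabotropic glutamate receptor genes 4 could be tested and 3 were called higher, beside 5.22% of all genes tested. The 3 called higher all encode group III receptors, which lower cyclic AMP and restrain transmitter release. Grm8 was at 6.63, 3.98 and 6.02 CPM against 0.363, 0.680 and 0.201 CPM, from 103, 59 and 76 reads against 5, 11 and 3. The groups were far apart: the pooled reads gave 13.1 times more Grm8 in miR-155KONf1KO, with a 95% exact binomial interval of 8.20 to 22.1 that covers counting error only, and the log2 fold change of 3.70 (SE 0.53, edgeR adjusted p = 0.0201) was the greatest among the 34 genes. Grm7, a presynaptic receptor of low glutamate affinity and the most abundant metabotropic transcript per length (1.98 RPKM over the 6 tumours), was at 18.9, 15.4 and 20.4 CPM against 3.48, 8.84 and 3.15 CPM (log2 fold change 1.81, SE 0.42, edgeR adjusted p = 0.0396). Grm4, a receptor of the same group, was at 5.28, 5.67 and 8.47 CPM against 1.45, 2.97 and 1.54 CPM (log2 fold change 1.69, SE 0.41, edgeR adjusted p = 0.0444). In both cases Nf809 was the highest Nf1KO tumour and stayed below every tumour without miR-155.

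The remaining metabotropic genes were low. Grm5, of the group that couples to phospholipase C, was at 2.19, 1.76 and 1.43 CPM against 2.83, 0.865 and 3.95 CPM and was not called (edgeR adjusted p = 0.644). Grm3 had 25, 10 and 29 reads against 6, 7 and 5; its groups did not overlap, but it did not pass the filter and was not tested. Grm6, the receptor of retinal bipolar cells, had 30 reads in Nf809 and 0 in the other 5 tumours, and Grm2 had 0 reads in all 6, which allows up to 0.238 CPM in MiRNC670, the shallowest library.

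**Figure D3:**
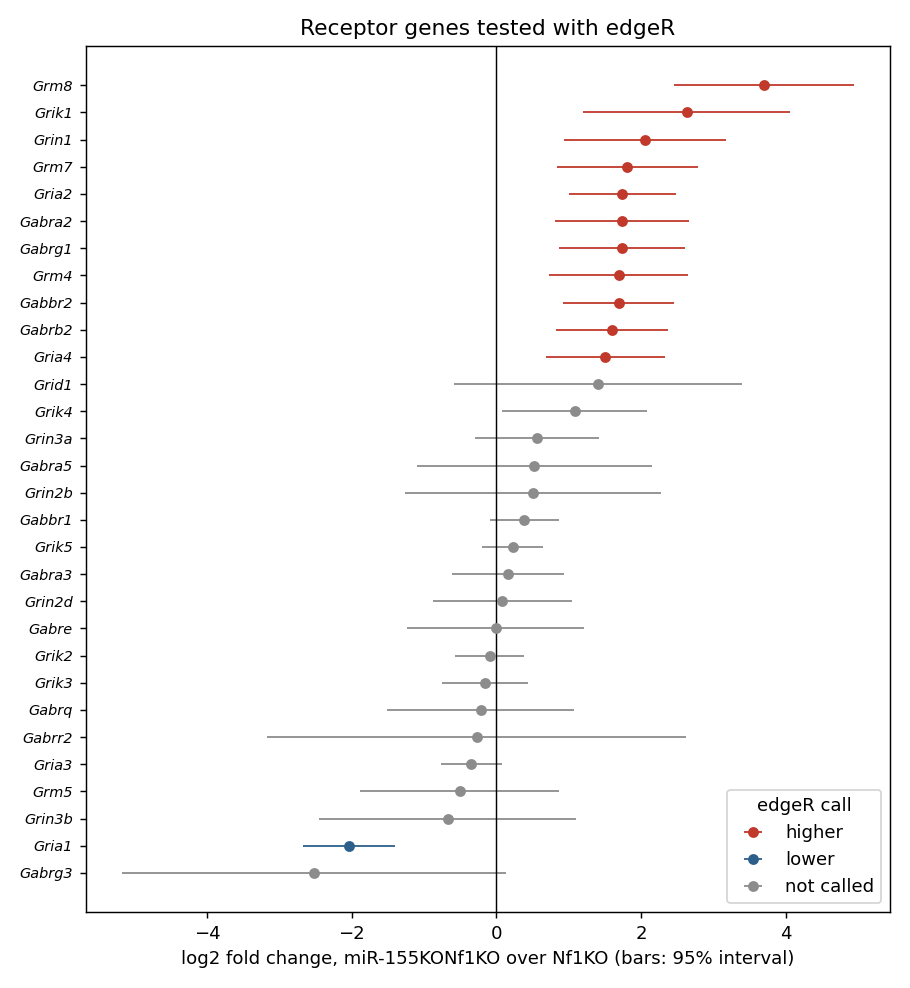
Log2 fold change of 30 of the receptor genes tested, miR-155KONf1KO over Nf1KO, with 95% intervals from the edgeR fit; red marks genes called higher, blue the gene called lower and grey genes not called. The red points run from 1.51 (Gria4) to 3.70 (Grm8), and Gria1 stands alone in blue at -2.04.

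GABA-A receptors are channels that join subunits of several kinds. Of 19 GABA-A genes, 12 were tested, 5 were called higher and 0 lower by edgeR, with 6 at an unadjusted p under 0.05. Among all genes tested, 5.22% were called higher and 4.74% lower. Gabrb2, for beta-2, was at 7.02, 9.79 and 13.3 CPM against 2.54, 3.46 and 3.88 CPM (log2 fold change 1.60, SE 0.33, edgeR adjusted p = 0.0314). Gabra2, for alpha-2, the alpha subunit usual in sensory neurons, was at 24.1, 21 and 38.9 CPM against 6.46, 13.1 and 5.49 CPM (log2 fold change 1.74, SE 0.39, edgeR adjusted p = 0.0387). All tumours without miR-155 were above all Nf1KO tumours for both genes.

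Gabrg1, which encodes a gamma subunit, was at 4.51, 6.01 and 7.13 CPM against 2.32, 1.3 and 1.67 CPM (log2 fold change 1.73, SE 0.37, edgeR adjusted p = 0.0337), and Nf803 was the highest Nf1KO tumour. Gabrg3, a gene of the same kind, was at 0.386, 1.42 and 0.0792 CPM against 7.40, 3.21 and 0.469 CPM. Nf827 lay within the range of the tumours without miR-155, and the log2 fold change of -2.52 (SE 1.13) did not pass (edgeR adjusted p = 0.208).

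Gabra5, the gene of an extrasynaptic alpha subunit, was at 3.28, 1.49 and 3.48 CPM against 0.653, 3.77 and 1.27 CPM (log2 fold change 0.52, SE 0.69) and was not called (edgeR adjusted p = 0.687); its counts are uncertain where a gene lies on the opposite strand. Gabra3 (6.89 to 9.25 CPM against 4.88 to 10.7 CPM), Gabre (1.5 to 2.23 CPM against 1.0 to 3.21 CPM), Gabrq (2.23 to 4.83 CPM against 1.47 to 5.52 CPM) and Gabrr2 (0.317 to 1.28 CPM against 0.0726 to 3.03 CPM) had overlapping groups and were not called. Gabra4, Gabra6, Gabrb1, Gabrd, Gabrp, Gabrr1 and Gabrr3 had at most 18 reads in any group and were not tested. Gabra6 and Gabrd, the genes of cerebellar and extrasynaptic subunits, had 6 and 8 reads in miR-155KONf1KO and 0 in Nf1KO.

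The GABA-B receptor needs both of its subunits at the cell surface, and 1 of its 2 genes was called. Gabbr2 was at 38.6, 24.0 and 36.4 CPM against 8.49, 14.9 and 7.16 CPM and rose by a log2 fold change of 1.69 (SE 0.33, edgeR adjusted p = 0.0269). Gabbr1 was at 97.5, 90.6 and 126 CPM against 71.9, 101 and 67.2 CPM, with overlapping groups and a log2 fold change of 0.39 (95% interval -0.09 to 0.87, edgeR adjusted p = 0.275). Per length Gabbr1 was above Gabbr2 in every tumour, and the share of Gabbr2 in the pair was 31.5%, 23.5% and 25.1% against 12.1%, 14.6% and 11%.

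Sensory neuron transcripts were also higher in miR-155KONf1KO, the direction in which the 14 receptor genes had been called. The marker list was chosen with earlier results of these data known, so the shared direction is a description. None of the 26 markers tested is a receptor gene of these families. By edgeR 14 were called higher and 0 lower (25 at an unadjusted p under 0.05), beside 5.22% and 4.74% of all genes tested. Their summed level was 8292, 6906 and 10871 CPM in MiRNC149, MiRNC640 and MiRNC670 against 2429, 3865 and 2193 CPM in Nf803, Nf809 and Nf827. Nefl (mean 2555 against 708 CPM), Snap25 (2138 against 479 CPM) and Nefm (1170 against 298 CPM) made up a large part of these sums. Ntrk2 was the 1 marker with a negative log2 fold change (-0.25, SE 0.16, edgeR adjusted p = 0.381). Among the markers with the smallest p were Nefh, which encodes a neurofilament (log2 fold change 1.82, edgeR adjusted p = 0.0186), Snap25, which encodes a protein of vesicle fusion (2.16, edgeR adjusted p = 0.0194), and Mrgprd, a receptor gene of nonpeptidergic nociceptors (2.52, edgeR adjusted p = 0.0201). The 14 receptor genes called higher summed to 378, 293 and 457 CPM against 87.7, 169 and 75.6 CPM. Nf809 was the highest Nf1KO tumour in the neuron sum and in 12 of these 14 genes, and MiRNC670 was the highest tumour without miR-155 in the neuron sum and in 10 of them.

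The 14 genes were also set against the neuron markers. Per 1000 CPM of the neuron markers, the 14 genes held 45.6, 42.4 and 42.0 CPM in MiRNC149, MiRNC640 and MiRNC670 and 36.1, 43.8 and 34.5 CPM in Nf803, Nf809 and Nf827, so that Nf809 lay within the range of the other group. On this scale the median log2 ratio of the 14 genes was 0.16, and 2 of them kept groups that did not overlap. The marker sum includes Ntrk2, at 575, 433 and 465 CPM against 676, 494 and 585 CPM. Ntrk2 is a larger part of the sum in Nf1KO, so it lowers the Nf1KO ratios more. The ratios were not computed without Ntrk2, so no direction is read from the small difference or from the median log2 ratio of 0.16. The scale itself moves genes down in miR-155KONf1KO: a gene of equal CPM in every tumour would have a log2 ratio of -1.66, and of all genes tested 0.718% lay higher and 78.4% lower without overlap. Grik1 was at 7.77, 5.01 and 5.41 against 2.54, 4.24 and 1.25 per 1000 CPM, and Grm8 was at 0.80, 0.576 and 0.554 against 0.15, 0.176 and 0.0916. The 32 genes not called or not tested summed to 602 to 849 CPM against 711 to 804 CPM. Per 1000 CPM of myelinating Schwann cell markers the 14 genes were at 32.7, 12.5 and 28.9 against 11.6, 26.5 and 11.5. The groups overlapped on that scale too. They did not overlap per 1000 CPM of macrophage markers or of general and nonmyelinating Schwann cell markers. These ratios are a description. The marker list does not separate nerve fibres from neuron cell bodies, and the part that either has in the receptor values was not tested.

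**Figure D4:**
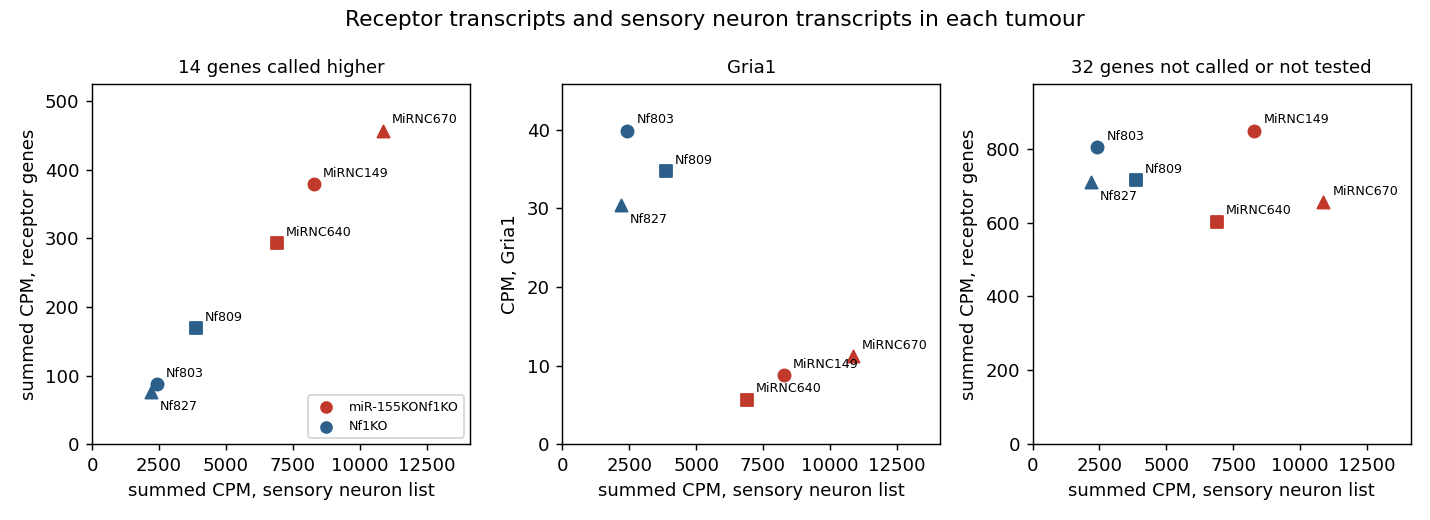
Summed CPM of the sensory neuron markers (horizontal axis) against summed CPM of the 14 receptor genes called higher, CPM of Gria1, and summed CPM of the 32 genes not called or not tested (vertical axes), 1 point per tumour, red for miR-155KONf1KO and blue for Nf1KO. The 14 genes run from 75.6 CPM in Nf827, at 2193 CPM of neuron markers, to 457 CPM in MiRNC670, at 10871 CPM. Gria1 is lowest in the 3 miR-155KONf1KO tumours, the group in which it was called lower. Within that group Gria1 is 5.67 CPM in MiRNC640, which has the fewest neuron transcripts, and 11.2 CPM in MiRNC670, which has the most. The Nf1KO tumours show no such order.

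Markers of other cells also moved, where 5.22% of all genes tested were called higher and 4.74% lower. Myelinating Schwann cell markers had 11 of 15 called higher and 0 lower, with sums of 11572 to 23413 CPM against 6374 to 7541 CPM. Macrophage markers had 6 of 12 called lower and 0 higher, with sums of 443 to 943 CPM against 1336 to 2559 CPM, and fibroblast markers had 6 of 10 lower and 0 higher, with sums of 6057 to 8289 CPM against 14306 to 16689 CPM. Satellite glia markers had 2 of 8 called higher, with overlapping sums of 774 to 1113 CPM against 955 to 1102 CPM. Markers of central nervous system neurons and glia summed to only 20.5 to 29.4 CPM against 9.11 to 18.9 CPM, none of the 4 tested was called, and Mnx1 and Lbx1 had 0 reads in all tumours. Skeletal muscle, adipocyte and melanocyte markers had 0 calls, and the adipocyte sum reached 3971 CPM in MiRNC640 against 131 to 980 CPM in the other 5 tumours. The skeletal muscle sum was 2382 CPM in MiRNC670 and 2811 CPM in Nf809, against 200, 430, 68.7 and 5.02 CPM in MiRNC149, MiRNC640, Nf803 and Nf827. MiRNC670 and Nf809 were also the tumours in which most of the 14 receptor genes were highest within their group. The part of these cells in the receptor results was not tested.

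Genes for proteins that escort or anchor the receptors rose in part. Of 41 genes for auxiliary subunits and scaffolds, 36 were tested, 5 were called higher and 1 lower, with a median log2 fold change of 0.33. The shares over all genes tested were 5.22% higher and 4.74% lower. Cacng2, which encodes the AMPA receptor partner stargazin, rose from 0.652 ± 0.346 to 3.99 ± 1.19 CPM (SD, n = 3 in each group; log2 fold change 2.59, SE 0.53, edgeR adjusted p = 0.0299), and its relative Cacng5 rose by 1.86 on the log2 scale (SE 0.36, edgeR adjusted p = 0.0277). Kctd8, which encodes a GABA-B auxiliary subunit, rose by 2.43 on the log2 scale (SE 0.55, edgeR adjusted p = 0.0390), whereas Kctd12, a gene of the same family, fell by 1.14 on the log2 scale (SE 0.27, edgeR adjusted p = 0.0408), from 253 ± 95.7 to 114 ± 16.2 CPM. Lhfpl4, which encodes a partner of GABA-A receptors at inhibitory synapses, rose by 1.64 on the log2 scale (SE 0.40, edgeR adjusted p = 0.0462) and Dlg2, a postsynaptic scaffold gene, by 1.37 (SE 0.27, edgeR adjusted p = 0.0290).

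Genes that make, load and clear the transmitters were compared as well. Of 25 such genes, 20 were tested, 5 were called higher and 0 lower, with a median log2 fold change of 0.52. Over all genes tested, 5.22% were called higher and 4.74% lower. Slc17a7, which encodes the vesicular glutamate transporter VGLUT1, rose from 2.15 ± 0.998 to 9.66 ± 1.62 CPM (SD, n = 3 in each group; log2 fold change 2.16, SE 0.39, edgeR adjusted p = 0.0258). Slc6a12, which encodes a GABA and betaine transporter, rose by 1.46 on the log2 scale (SE 0.35, edgeR adjusted p = 0.0444). Slc12a2, which encodes the chloride importer NKCC1 that sets the response to GABA in sensory neurons, went up from 251 ± 36.4 to 476 ± 84.2 CPM (a log2 fold change of 0.93, SE 0.17, edgeR adjusted p = 0.0263), and Aldh5a1, an enzyme gene of GABA breakdown, rose by 0.93 on the log2 scale (SE 0.20, edgeR adjusted p = 0.0329). The GABA-synthesis genes, named after their values were seen, were too low to test: Gad1 had 0, 1 and 5 reads against 98, 4 and 10, with most in Nf803, and Gad2 had 30, 26 and 1 against 1, 0 and 0. Slc32a1, which encodes the vesicular GABA transporter, had 0 reads in all 6 tumours.

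Promoters of the receptor genes, from 250 bases before to 50 bases after the start in RefSeq (GRCm38.p6), could be matched for 32 of the 47 genes, with 39 promoters in all. Their median GC content was 59.7%, against 52.7% over all 32851 promoters in the table. The GC box GGGCGG, searched on both strands like the motifs that follow, was found in 19 of 39 (48.7%), and in 35.7% of all promoters. TATAAA was found in 4 of 39 (10.3%), against 13.6%, and the cAMP response element TGACGTCA in 0 of 39, against 1.79%. The element bound by the neuronal repressor REST was searched by its parts: GGACAGCG was found in 1 of 39 (2.56%), in Gria2, against 1.26%, and TTCAGCACC in 1 of 39 (2.56%), in Grm2, against 0.371%. Rest itself was at 28.5 ± 2.11 CPM without miR-155 and 36.6 ± 7.07 CPM in Nf1KO (SD, n = 3 in each group; edgeR adjusted p = 0.261). The promoters of Gria2, Grin1 and Grm8 are shown because these genes rose in 3 different families; all lie on the minus strand, and capitals mark any of the motifs found. Grm8 has 3 promoters in the table, and the one shown is the one with a GC box (67% GC); the others (54% and 43.3% GC) held none of the motifs.
Gria2 promoter, chr3:80802786-80803085: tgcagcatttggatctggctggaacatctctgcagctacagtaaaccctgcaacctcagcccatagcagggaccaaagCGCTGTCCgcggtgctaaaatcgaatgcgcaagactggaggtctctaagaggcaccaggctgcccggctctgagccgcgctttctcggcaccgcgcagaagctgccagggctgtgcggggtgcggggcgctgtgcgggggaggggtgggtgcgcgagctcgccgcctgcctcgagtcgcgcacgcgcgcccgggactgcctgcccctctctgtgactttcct
Grin1 promoter, chr2:25319138-25319437: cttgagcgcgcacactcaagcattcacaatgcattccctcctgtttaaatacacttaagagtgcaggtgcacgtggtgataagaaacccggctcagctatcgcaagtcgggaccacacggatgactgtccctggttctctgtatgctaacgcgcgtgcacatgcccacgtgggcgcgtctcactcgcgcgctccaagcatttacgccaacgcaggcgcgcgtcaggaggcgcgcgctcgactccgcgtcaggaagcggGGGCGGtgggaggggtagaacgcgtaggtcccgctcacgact
Grm8 promoter, chr6:28135097-28135396: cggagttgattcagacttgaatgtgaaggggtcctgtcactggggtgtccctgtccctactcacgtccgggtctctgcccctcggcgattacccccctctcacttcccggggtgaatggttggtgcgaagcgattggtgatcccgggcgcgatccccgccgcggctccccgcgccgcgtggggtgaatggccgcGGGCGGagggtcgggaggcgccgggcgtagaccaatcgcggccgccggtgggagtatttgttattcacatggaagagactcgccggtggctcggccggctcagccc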

How the data were processed

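RNA from 6 tumours was sequenced from Nextera XT libraries. Per the submitters' processing notes, the tools were HISAT2 2.0.5 and featureCounts 1.5.2 with genome build mm10; which annotation was counted, whether strand was used and how multi-mapped reads were handled is not given in the sources used here. The deposited table holds raw read counts per gene. From these counts, edgeR 4.0.16 (R 4.3.3) kept 15604 genes by its filter (minimum count 10, minimum total 15), scaled libraries by TMM and fitted the quasi-likelihood model with group as the only term; genes were called at a Benjamini-Hochberg adjusted p under 0.05, two-sided. CPM use TMM-scaled library sizes, and RPKM divide them by the exon length in GENCODE M21. DESeq2 1.42.0 and limma 3.58.1 (voom) served as alternatives, with other scalings, filters, a sex covariate and each tumour left out. Replicates of a group differed beyond sampling noise (variance at least 23.17 times that of Poisson counts), so they are not copies of 1 library. Each was counted as 1 sample, although this spread does not show that the tumours came from separate animals.

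The rule for named genes takes every receptor gene called, the 8 not called with the greatest fold change, the gene with the highest RPKM of each family, genes with a miR-155 seed match and, in the companion lists, up to 6 called genes per direction. The members, the companion lists and the marker lists were chosen with earlier results of these data known. A count of 3 reads, the limit that a count of 0 allows, is 0.185 to 0.238 CPM, for counting error only. Rows near the rule but for other proteins (such as Grina and Grin1os) were left out. Some genes that the rule names are not reported here, but counts, sums and medians include them.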

Additional observations from a re-analysis of the deposited data

How the results depend on the processing

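The 14 higher and 1 lower receptor genes were called alike with DESeq2 size factors, total counts and no low-count filter. They were also called with a filter of 1 CPM and the robust edgeR fit. DESeq2 and limma voom called 15 receptor genes higher and 1 lower. Over all genes the main edgeR fit called 815 higher and 739 lower, DESeq2 1477 and 1441, and limma voom 810 and 605. With sex as a covariate 8 were higher, and at an adjusted p under 0.01 there were 0 higher and 0 lower, since the smallest adjusted p of any gene was 0.0183. Leaving out 1 tumour gave 0 to 16 higher and 0 to 1 lower in edgeR. In DESeq2 (chosen after seeing the data) it gave 13 to 17 higher, and 3 lower without MiRNC149, 2 without MiRNC640 and 2 without Nf827. Counts over all genes in these DESeq2 fits are not given here, so they do not show that the receptor genes in particular were stable. The median log2 fold change of 0.82 was 1.44 with no filter and 1.44 in DESeq2, and 0.47 to 1.59 with 1 tumour left out (1.32 without MiRNC640). The companion lists held 11 called genes, 20 in DESeq2 and 0 to 19 in edgeR with 1 tumour left out (7 without MiRNC149). Over all genes, edgeR with 1 tumour left out called 0 to 1183 higher and 0 to 1059 lower (808 and 667 without MiRNC149). No receptor gene changed its sign past the threshold; the cause of these changes was not tested. Of the 47 receptor genes, 13 did not pass the filter on low counts and were not tested. Limited depth and absent expression cannot be told apart for them. No paired analysis was possible because the tumour numbers differ between the groups.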
